A study of Homo sapiens with 2 samples.

Results

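The actomyosin and focal adhesion genes of PC9 cells were examined as a group of 48 genes among the 16642 of the deposited table. They were chosen by gene symbol alone: the numbered MYH, MYL, TPM, ACTN, TLN, PDLIM and LIMS genes, filamin genes such as FLNA and FLNC, the actins, and VCL, ZYX, PXN, MYLK, PTK2, ILK, CALD1, SRF, MKL1 and MKL2. PC9 is an established human lung adenocarcinoma line. The tested library, labelled PC9-TAZ4SA, came from cells that express TAZ4SA, a mutant, constitutively active form of TAZ (a co-activator of transcription), and the library labelled PC9 Control came from control cells described as parental. Each group holds 1 library of total RNA. The labels' protocols describe lentiviral transduction with the Tet-On control pLVX-Tet-On Advanced, the TAZ4SA vector pLVX-TP-3F-TAZ4SA or both, and TAZ4SA was induced with doxycycline at 50 ng/mL over 24 h. Whether the control also received doxycycline, and whether the TAZ4SA line is a clone or a pool, was not given in the sources used here.

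Non-muscle myosin II pulls on actin filaments to make contractile force, and tropomyosins, caldesmon, alpha-actinins and filamins set the spacing and stiffness of those filaments. Talin, vinculin, zyxin and paxillin join the filaments to integrins at focal adhesions, where the cell holds its substrate. Tension on this system is a known upstream input of TAZ and its paralog YAP, and many of its genes are known targets of serum response factor (SRF) and its actin-regulated co-activators MKL1 and MKL2, also named MRTF-A and MRTF-B.

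The depth was 29668388 reads in the TAZ4SA library, against 47684754 in the control. WWTR1, the gene of TAZ, stood at 15628 normalized counts in TAZ4SA cells against 4933 in control cells, or 3.17-fold (3.07 to 3.27), and reads of the construct and of the endogenous gene cannot be told apart in it. Of 9 epithelial markers, 7 were measured, led by KRT8 at 89793 in TAZ4SA cells against 69279 in control cells and KRT18 at 81886 in TAZ4SA cells against 59184 in control cells, while the lung transcription factor gene NKX2-1 has no row in the table. Of these 7 epithelial markers, 0 were at least 1.5-fold higher and 1 lower, where 4.16% and 4.44% of all measured genes were. The lower marker was the surfactant gene SFTPB, with 15 reads in TAZ4SA cells against 90 in control cells. At any size 5 of the 7 were higher and 2 lower, where 50% of all measured genes were higher. Besides SFTPB, KRT19 was lower, at 47694 in TAZ4SA cells against 53479 in control cells. The summed normalized count of markers of other cell types was 490 in TAZ4SA cells against 413 in control cells for fibroblast markers (1 of 9 with a row), 49.3 in TAZ4SA cells against 26.1 in control cells for leukocyte markers (2 of 9) and 2238 in TAZ4SA cells against 2676 in control cells for endothelial markers (3 of 6). Among leukocyte markers, ITGAM had 32 reads in TAZ4SA cells against 21 in control cells.

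A member was called measured if its normalized count, a read count divided by a size factor for its library, averaged at least 20 over the 2 libraries. A total of 41 members were measured, and 32 averaged at least 1000. Every ratio below is TAZ4SA over control, its bracketed range is an exact 95% interval of counting error alone, and log2 ratios were taken of the normalized count plus 1. Levels given without another unit are normalized counts, which are not scaled for gene length. No test of the conditions could be made from 1 library each, and the spread between cultures is unknown. These are bulk libraries, in which a different number of cells expressing a gene and a different amount of its RNA per cell cannot be told apart.

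The group as a whole lay close between the libraries, and a subset of it was higher with TAZ4SA. Together the members took 1.86% of the reads of the TAZ4SA library, against 1.68% of those of the control. Their summed normalized count was 799551 in the TAZ4SA library, against 721357 in the control, or 1.11-fold, and MYH9 alone made up 44.7% of the difference. Without MYH9 the sums stood at 1.07-fold. The median log2 ratio of the 41 measured members was 0.06, beside 0.00019 for the 14074 measured genes of the table. The upper quartile was at 0.37 for the members and at 0.14 for all genes, and the lower quartile at -0.0056 for the members and at -0.16 for all genes, so that both quartiles of the members lay higher.

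At 1.5-fold with an interval excluding a ratio of 1, 4 of the 41 members (9.76%) were higher, against 4.16% of all measured genes. These were TPM1, PDLIM2, PDLIM4 and MYH15. Only MYH16 was lower at that size (2.44%, against 4.44% of all genes). At a smaller threshold, 11 members (26.8%) were at least 25% higher, against 8.12% of all genes, and 2 (4.88%) were at least 20% lower, the same fold in the other direction, against 9.9%. The 11 also include MYH9, FLNC, CALD1, PDLIM1, PDLIM5 and MKL1, and the 2 are MYH16 and MYL5. Among genes averaging at least 1000, which are less subject to counting error, 9 of 32 members (28.1%) were at least 25% higher. Of all such genes, 5.29% were. At least 1.5-fold higher were 2 of the 32 (6.25%, against 1.75%). At either size MYH16 alone of the 32 was lower. A log2 ratio above 0 was found in 30 of the 41 members (73.2%), against 50% of all measured genes, and in 25 of the 32 abundant ones (78.1%), against 51.6%. No member reached 2-fold in either direction, where 1.9% of all measured genes were higher and 1.56% lower. These shares describe 2 libraries and carry no test.

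**Figure D1:**
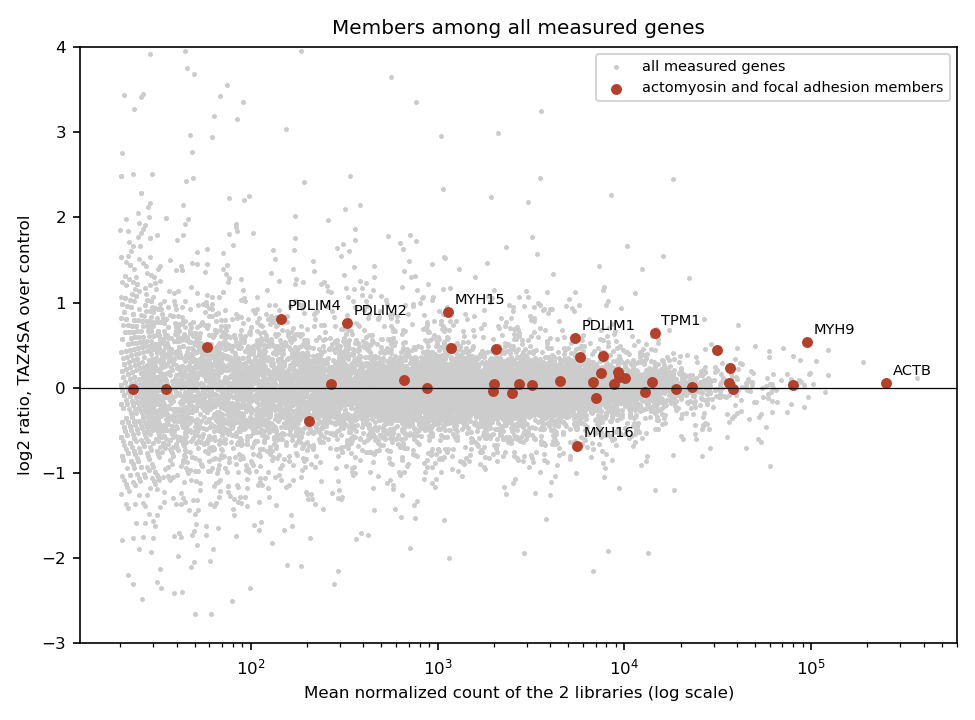
Each point is a gene, plotted by its mean normalized count over both libraries (x, log scale) and its log2 ratio of TAZ4SA over control (y). Grey points are all 14074 measured genes (17 lie outside the plotted range) and red points the 41 measured members. Most members are abundant and sit near 0, with MYH15, PDLIM4, PDLIM2, TPM1 and PDLIM1 above and MYH16 below.

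The promoters of 38 of the 48 members were found in the RefSeq set used. Each window ran from 250 bases before to 50 bases after a listed start. Members without an entry in that set, among them ACTB, MYL9, MYH16, PDLIM2 and PTK2, were not searched. The 38 genes had 67 windows in all, some of them overlapping where starts lie close. The CArG box, the site bound by SRF, was searched on both strands, as was GGAATG, a core read by the TEAD factors through which TAZ acts. A CArG box lay in 7 of the 67 windows (10.4%), against 1.13% of the windows of all measured genes. The 7 genes were ACTG1, ACTG2, ACTN1, FLNA, MYLK, SRF and TPM4. Of the 9 members at least 25% higher that had a promoter in the set, 0 of 14 windows held the box. In 14 windows a count of 0 is near the background of 1.13%. Of the 26 other measured members, 6 of 47 windows held it. GGAATG lay in 12 of the 67 windows (17.9%), against 11.4% of windows of all measured genes. By gene GGAATG was present in 3 of the 9 higher members (MYH9, FLNC and CALD1, in 4 of 14 windows). It was present in 6 of the 26 other measured members (ACTA2, ACTN1, MKL2, MYL12A, PXN and VCL, in 6 of 47 windows). Over all measured genes with a promoter it was present in 1554 of 10448. Genes with several windows, such as CALD1 with 4, have more chances of a match. In ACTN1 and MYLK a window held both motifs, without overlap. A match is a run of letters only, and no binding was measured.

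The following sequences, from RefSeq and in the direction of transcription, show examples, with CArG boxes and GGAATG (or its reverse complement) in capitals. SRF, ACTG1 and FLNA carry the box and had ratios near 1, MYH9 and FLNC carry GGAATG and were higher, VCL carries it and had a ratio near 1, and TPM1, the most abundant member past 1.5-fold, carries neither in its listed window.
SRF, GRCh38.p14 chr6:43171019-43171318, plus strand: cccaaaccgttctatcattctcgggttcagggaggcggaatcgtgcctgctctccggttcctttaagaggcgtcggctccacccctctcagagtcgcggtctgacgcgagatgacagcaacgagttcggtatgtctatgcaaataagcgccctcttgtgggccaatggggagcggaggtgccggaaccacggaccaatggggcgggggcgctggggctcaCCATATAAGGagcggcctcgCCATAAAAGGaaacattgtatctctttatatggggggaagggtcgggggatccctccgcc
ACTG1, GRCh38.p14 chr17:81512750-81513049, minus strand: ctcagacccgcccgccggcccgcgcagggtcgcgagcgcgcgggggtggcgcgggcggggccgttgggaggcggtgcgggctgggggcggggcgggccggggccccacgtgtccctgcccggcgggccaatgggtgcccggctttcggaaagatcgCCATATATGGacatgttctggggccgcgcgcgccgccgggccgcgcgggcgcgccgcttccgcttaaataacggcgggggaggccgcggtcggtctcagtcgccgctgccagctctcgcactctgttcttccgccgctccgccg
FLNA, GRCh38.p14 chrX:154374585-154374884, minus strand: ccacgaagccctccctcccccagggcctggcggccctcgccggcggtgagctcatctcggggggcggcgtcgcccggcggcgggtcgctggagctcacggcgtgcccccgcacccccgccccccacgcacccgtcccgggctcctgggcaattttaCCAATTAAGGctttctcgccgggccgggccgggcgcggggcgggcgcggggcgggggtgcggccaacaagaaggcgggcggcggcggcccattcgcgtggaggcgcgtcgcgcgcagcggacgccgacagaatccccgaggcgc
MYH9, GRCh38.p14 chr22:36387918-36388217, minus strand: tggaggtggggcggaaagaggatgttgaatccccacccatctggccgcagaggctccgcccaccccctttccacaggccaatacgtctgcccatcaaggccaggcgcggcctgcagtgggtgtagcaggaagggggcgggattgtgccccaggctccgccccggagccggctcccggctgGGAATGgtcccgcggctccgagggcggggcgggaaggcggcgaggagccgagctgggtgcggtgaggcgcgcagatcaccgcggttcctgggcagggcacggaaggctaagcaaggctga
FLNC, GRCh38.p14 chr7:128830156-128830455, plus strand: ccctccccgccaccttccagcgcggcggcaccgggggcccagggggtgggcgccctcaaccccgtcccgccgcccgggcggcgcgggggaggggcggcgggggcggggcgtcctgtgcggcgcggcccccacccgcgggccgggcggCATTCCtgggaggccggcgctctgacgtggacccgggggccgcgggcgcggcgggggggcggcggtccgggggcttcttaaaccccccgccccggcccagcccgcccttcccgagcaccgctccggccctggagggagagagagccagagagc
VCL, GRCh38.p14 chr10:73997866-73998165, plus strand: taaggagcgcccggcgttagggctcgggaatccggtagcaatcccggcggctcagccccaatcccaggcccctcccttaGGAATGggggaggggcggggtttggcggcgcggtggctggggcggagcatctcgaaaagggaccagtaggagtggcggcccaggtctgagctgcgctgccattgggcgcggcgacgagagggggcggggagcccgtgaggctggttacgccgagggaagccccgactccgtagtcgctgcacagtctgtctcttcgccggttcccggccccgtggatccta
TPM1, GRCh38.p14 chr15:63048239-63048538, plus strand: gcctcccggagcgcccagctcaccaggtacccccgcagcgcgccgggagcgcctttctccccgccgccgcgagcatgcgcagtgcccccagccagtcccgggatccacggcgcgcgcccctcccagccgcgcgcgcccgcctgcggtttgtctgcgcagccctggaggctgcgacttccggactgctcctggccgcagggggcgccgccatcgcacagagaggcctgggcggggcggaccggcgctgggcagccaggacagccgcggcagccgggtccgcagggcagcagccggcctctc
In these windows the 2 boxes of SRF begin 30 and 10 bases before the start, those of ACTG1 and FLNA 94 bases before it, and the GGAATG matches of MYH9, FLNC and VCL 70, 103 and 171 bases before it.

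Among the myosin heavy chains, which hold the motor domain, MYH9 was higher and MYH14 slightly lower. MYH9, the heavy chain of non-muscle myosin IIA, had 112846 normalized counts in the TAZ4SA library, against 77874 in the control, or 1.45-fold (1.44 to 1.46). MYH14, the heavy chain of myosin IIC, had 6768 in TAZ4SA cells against 7348 in control cells, or 1.09-fold lower (1.05 to 1.13). MYH10, that of myosin IIB, was barely detected, with 7 reads in TAZ4SA cells against 12 in control cells. MYH9 thus made up 94.3% (94.2 to 94.5) of the reads of the 3 non-muscle heavy chains in the TAZ4SA library, against 91.4% (91.2 to 91.5) in the control. Such a share is taken within a library and does not depend on the scaling between libraries. Per kilobase of exon, the share of MYH9 was 95.05% in the TAZ4SA library, against 92.4% in the control.

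A pair of heavy chain genes from the sarcomeric branch differed in opposite directions. MYH15 had 1477 normalized counts in the TAZ4SA library, against 797 in the control, the highest ratio among the measured members at 1.85-fold (1.69 to 2.03). MYH16, a gene that has lost its reading frame in humans and is annotated as a transcribed unitary pseudogene, had 4282 in TAZ4SA cells against 6853 in control cells, or 1.60-fold lower (1.53 to 1.67). Both rested on many reads, 1018 reads in TAZ4SA cells against 886 in control cells for MYH15 and 2952 reads in TAZ4SA cells against 7617 in control cells for MYH16. Of 22 striated muscle markers, 8 have a row in the table. These 8 had a summed normalized count of 3944 in the TAZ4SA library, against 4181 in the control. Among the 6 that were measured, TNNC1 (33 reads in TAZ4SA cells against 4 in control cells) and TTN (21 reads in TAZ4SA cells against 14 in control cells) were at least 1.5-fold higher. LDB3 (29 reads in TAZ4SA cells against 134 in control cells) was lower. At that size 4.16% of all measured genes were higher and 4.44% lower. TNNC1, TTN and LDB3 are scarce and hold little of the sum, at 47.9, 30.5 and 42.1 normalized counts in TAZ4SA cells. Desmin, troponin I1 and MYOD1 have no row. The part of muscle markers in the MYH15 and MYH16 values was not tested.

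The light chains, which bind the neck of the heavy chain, stayed close to the control. MYL12B and MYL12A, regulatory light chains of non-muscle myosin, had 9737 in TAZ4SA cells against 8950 in control cells and 6944 normalized counts in TAZ4SA cells against 6633 in control cells, ratios of 1.09 (1.05 to 1.12) and 1.05 (1.01 to 1.09). MYL6, the main essential light chain of non-muscle cells, had 8942 in TAZ4SA cells against 8649 in control cells. Its relative MYL6B had 1952 in TAZ4SA cells against 1997 in control cells, with an interval that included a ratio of 1. Summed over 7 light chain genes the ratio was 1.05 (1.03 to 1.07), beside 1.403 (1.39 to 1.42) for the 3 non-muscle heavy chains. MYL5, a scarce regulatory light chain, was 1.31-fold lower (1.05 to 1.63), at 177 in TAZ4SA cells against 231 in control cells. The light chain gene MYL9, typical of smooth muscle, had 14 reads in TAZ4SA cells against 15 in control cells, the kinase gene MYLK 14 reads in TAZ4SA cells against 12 in control cells, and the atrial light chain gene MYL4 0 reads in TAZ4SA cells against 5 in control cells. At this depth no difference was detectable in the last 3 genes. MYL12A and MYL12B shared 6.44% of the 50-base stretches of the longest MYL12A transcript, so reads from those stretches cannot be assigned to either gene with certainty.

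**Figure D2:**
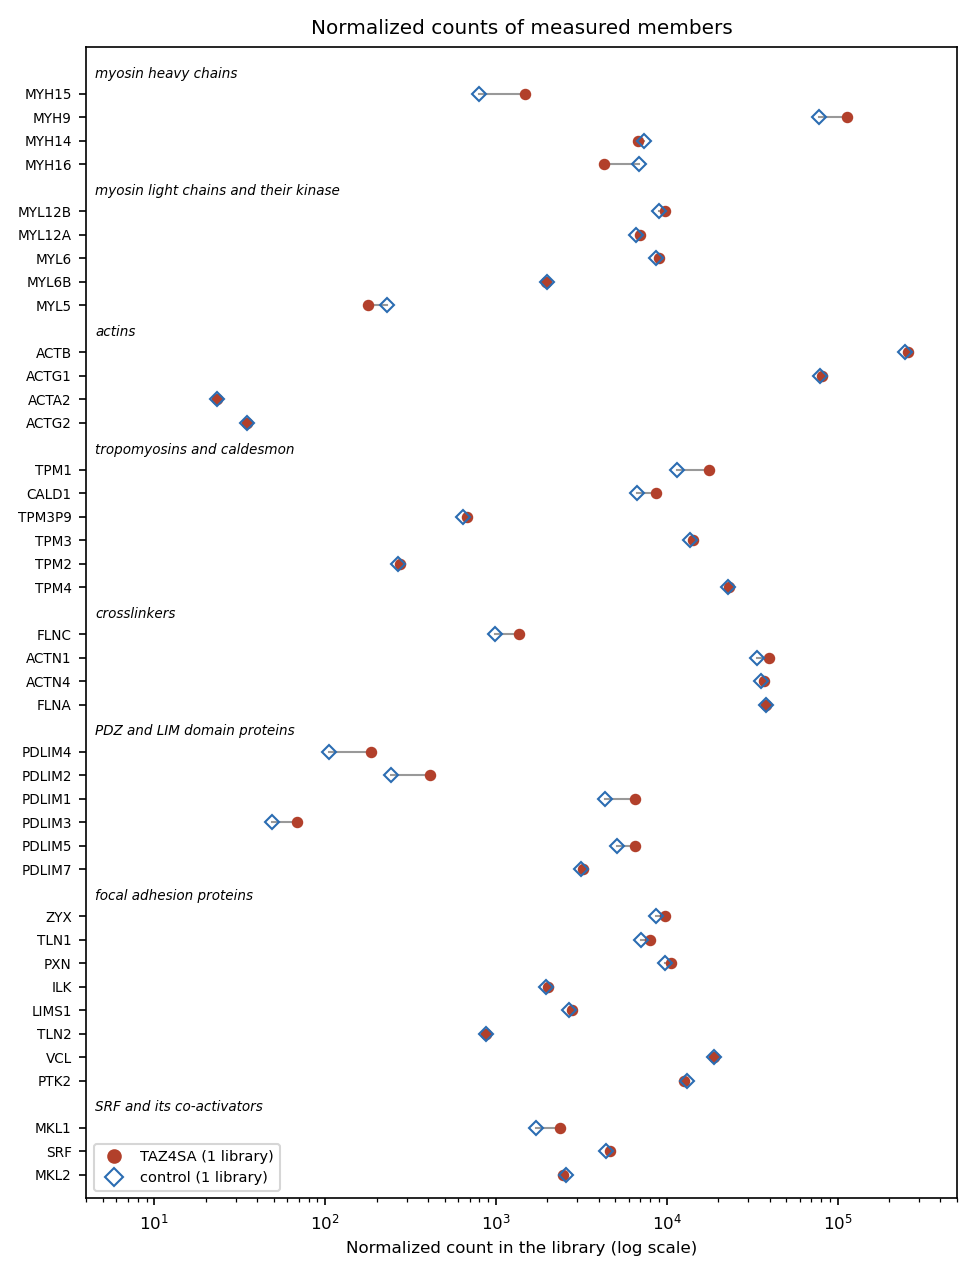
Normalized count (x, log scale) of measured members (y; 1 of the 41 is not shown), grouped by role, in the TAZ4SA library (filled circles) and the control library (open diamonds). The grey line joins the 2 libraries. Most pairs overlap, and the widest gaps are those of MYH15, MYH16, PDLIM4, PDLIM2 and TPM1.

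The actins had the smallest median difference of the 8 roles, a log2 ratio of 0.01. ACTB, cytoplasmic beta-actin, had 257010 normalized counts in the TAZ4SA library, against 247788 in the control, a ratio of 1.04 (1.03 to 1.04). ACTG1, cytoplasmic gamma-actin, had 80681 in TAZ4SA cells against 78566 in control cells, a ratio of 1.03 (1.02 to 1.04). ACTB made up 76.1% of actin reads in the TAZ4SA library, against 75.9% in the control. The smooth muscle actins ACTA2 and ACTG2 were near the minimum, with 16 reads in TAZ4SA cells against 26 in control cells and 24 reads in TAZ4SA cells against 39 in control cells, and their intervals included a ratio of 1. Of 8 smooth muscle markers, 2 have a row, and both had intervals that included a ratio of 1: SMTN at 3204 in TAZ4SA cells against 3091 in control cells and SYNM at 254 in TAZ4SA cells against 302 in control cells. ACTB shared 7.01% of its 50-base stretches with transcripts of 16 other genes, most with a pseudogene.

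Of the 4 tropomyosin genes, which lie along the actin filament and gate access of myosin, only TPM1 differed by 25% or more. TPM1 had 17772 normalized counts in the TAZ4SA library, against 11410 in the control, or 1.56-fold (1.52 to 1.60). TPM4 had 23140 in TAZ4SA cells against 22918 in control cells, with an interval that included 1, and TPM3 had 14305 in TAZ4SA cells against 13696 in control cells, a ratio of 1.04 (1.02 to 1.07). TPM2 had 274 in TAZ4SA cells against 265 in control cells, with an interval that included 1. In the TAZ4SA library TPM1 supplied 32.0% (31.6 to 32.5) of tropomyosin reads and TPM4 41.7%, against 23.6% (23.3 to 24.0) and 47.5% in the control. Per kilobase of exon the share of TPM1 was 23.6% in the TAZ4SA library, against 16.9% in the control. The table does not separate the isoforms of TPM1, which differ widely in use between muscle and other cells. CALD1, encoding caldesmon, which binds actin and tropomyosin and restrains myosin, had 8700 in TAZ4SA cells against 6711 in control cells, or 1.30-fold (1.253 to 1.34).

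The pseudogenes TPM3P9 and TPM3P6 also matched the symbol rule. TPM3P9 had 680 normalized counts in TAZ4SA cells against 640 in control cells, with an interval that included 1, and TPM3P6 had 9 reads in TAZ4SA cells against 10 in control cells. TPM3P6 shared 53.3% of its 50-base stretches with TPM3P9, so their reads are uncertain. The longest TPM4 transcript shared 17.2% of its stretches with 2 other genes, whereas that of TPM1 shared 0 with any other gene.

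Among the crosslinkers, FLNC was higher while FLNA was level. Both encode filamins, which join crossing filaments and tie them to membrane proteins. FLNC, the form typical of muscle, had 1366 normalized counts in the TAZ4SA library, against 988 in the control, or 1.38-fold (1.27 to 1.51). FLNA had 37864 in TAZ4SA cells against 38321 in control cells, with an interval of 0.973 to 1.003 that included a ratio of 1. FLNC shared 3.51% of its 50-base stretches with other genes, and FLNA 0.0118%.

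The alpha-actinins, which bundle antiparallel filaments, differed less. ACTN1 had 39679 normalized counts in TAZ4SA cells against 33855 in control cells, or 1.17-fold (1.15 to 1.19), and ACTN4 had 36887 in TAZ4SA cells against 35528 in control cells, or 1.04-fold (1.02 to 1.05). ACTN1 made up 51.8% of their reads in the TAZ4SA library, against 48.8% in the control. The longest ACTN1 transcript shared 9.10% of its 50-base stretches with 126 other genes, and that of ACTN4 2.58% with 2. Per kilobase of summed exons ACTN1 held 38.2% in the TAZ4SA library against 35.4% in the control, and per kilobase of the longest transcript 53.3% in TAZ4SA cells against 50.3% in control cells, so which of the pair is more abundant per length depends on the length used.

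**Figure D3:**
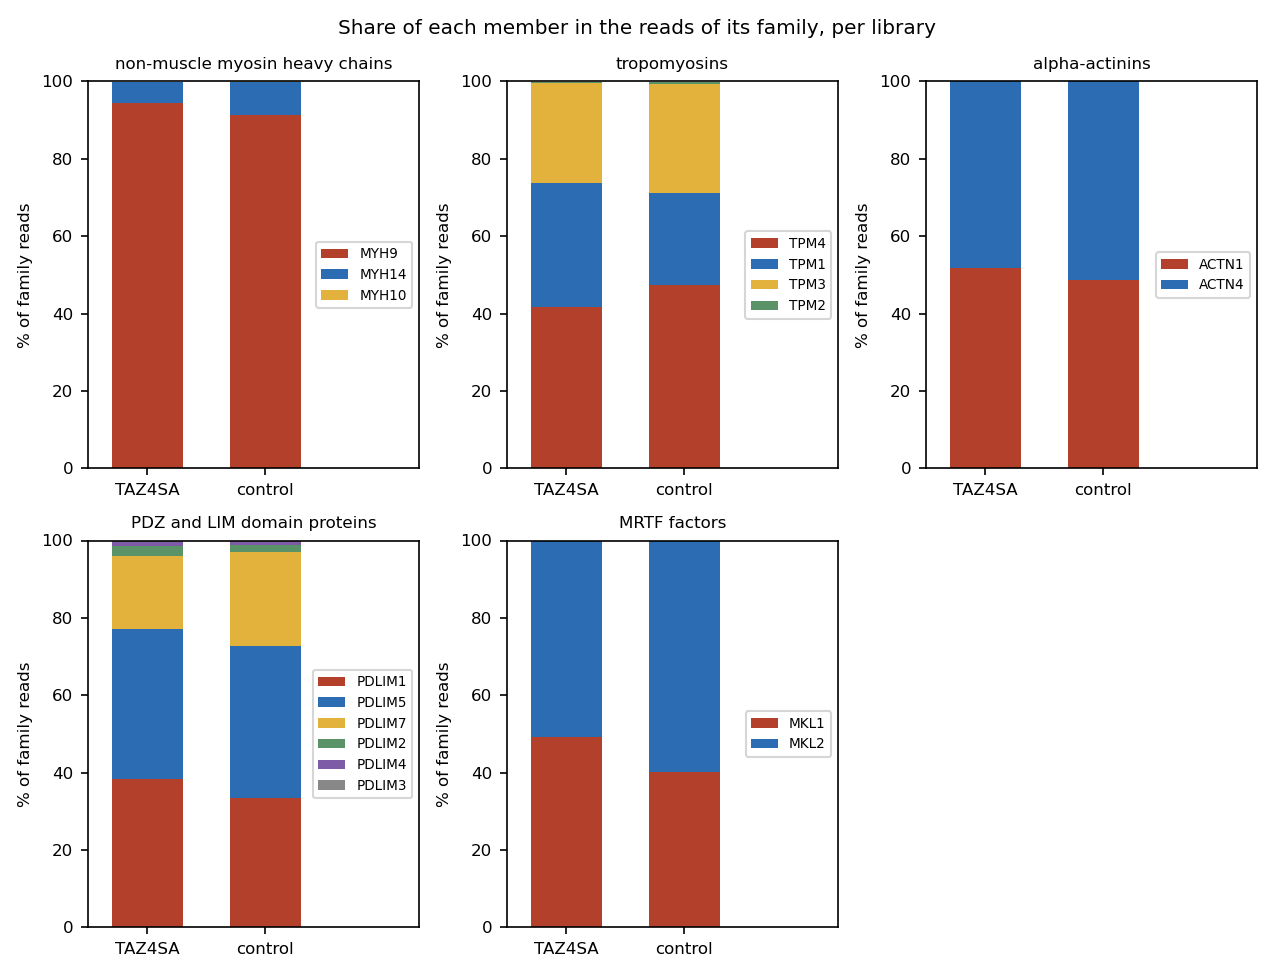
Stacked bars give the percentage of each family's reads (y) contributed by each gene in the TAZ4SA library (left bar) and the control library (right bar), from 1 library each. MYH9, TPM1, ACTN1, PDLIM1 and MKL1 take a larger share in the TAZ4SA library, for example 32.0% in TAZ4SA cells against 23.6% in control cells for TPM1.

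The PDZ and LIM domain proteins had the highest median log2 ratio, 0.53, of the 8 roles, which were drawn up after the values were seen. Of their 6 genes, 4 were at least 25% higher, where 8.12% of all measured genes were. These adaptors bind alpha-actinin or tropomyosin through the PDZ domain and recruit other proteins to stress fibres. PDLIM1 had 6519 normalized counts in the TAZ4SA library, against 4356 in the control, or 1.497-fold (1.44 to 1.56), with a log2 ratio of 0.58 just under the 1.5-fold threshold. PDLIM4 had 186 in TAZ4SA cells against 105 in control cells, or 1.76-fold (1.36 to 2.29), on 128 reads in TAZ4SA cells against 117 in control cells. PDLIM2, whose product also acts on nuclear NF-kB, had 413 in TAZ4SA cells against 244 in control cells, or 1.70-fold (1.43 to 2.01), on 285 reads in TAZ4SA cells against 271 in control cells. PDLIM5 had 6543 in TAZ4SA cells against 5091 in control cells, or 1.29-fold (1.24 to 1.34). All 4 were higher in the TAZ4SA library, on widely different numbers of reads.

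The remaining PDLIM genes stayed within counting error. PDLIM3, known from the Z discs of muscle, had 47 reads in TAZ4SA cells against 54 in control cells and an interval of 0.928 to 2.11. PDLIM7 had 3227 normalized counts in TAZ4SA cells against 3151 in control cells, with an interval that included 1. PDLIM1 supplied 38.4% (37.6 to 39.3) of the reads of the 6 genes in the TAZ4SA library, against 33.5% (32.7 to 34.3) in the control, whereas PDLIM7 supplied 19.0% in the TAZ4SA library, against 24.2% in the control. PDLIM2 shared 4.55% of its 50-base stretches with other genes, most of them with AC037459.1, and PDLIM4 shared 0.

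Of the 8 measured focal adhesion members, 0 were 25% higher or 20% lower, where 8.12% and 9.9% of all measured genes were, so that in 8 genes a count of 0 is near the background. ZYX, encoding zyxin, which gathers at adhesions under tension, had 9775 normalized counts in TAZ4SA cells against 8606 in control cells, or 1.14-fold (1.10 to 1.17). TLN1, encoding talin, which binds integrin tails, had 7939 in TAZ4SA cells against 7030 in control cells, or 1.13-fold (1.09 to 1.17), and its paralog TLN2 had 870 in TAZ4SA cells against 874 in control cells. PXN, encoding the scaffold paxillin, had 10513 in TAZ4SA cells against 9697 in control cells, or 1.08-fold (1.05 to 1.12). The ratios of ZYX, TLN1 and PXN were small, with counting intervals that excluded a ratio of 1.

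VCL, encoding vinculin, which reinforces talin under load, had 18771 normalized counts in the TAZ4SA library, against 18975 in the control, with an interval that included 1. PTK2, encoding focal adhesion kinase, had 12615 in TAZ4SA cells against 13056 in control cells, or 1.03-fold lower (1.01 to 1.06). ILK and LIMS1 encode the integrin-linked kinase and PINCH, which form a complex, and had 2028 in TAZ4SA cells against 1962 in control cells and 2779 in TAZ4SA cells against 2690 in control cells, both with intervals that included 1. LIMS2 had 6 reads in TAZ4SA cells against 5 in control cells and LIMS3 7 reads in TAZ4SA cells against 11 in control cells. LIMS3 shared 97.4% of its 50-base stretches with other genes, so its reads are uncertain. LIMS1 shared 13.8% of its stretches with 39 other genes, most with LIMS3 (12.4%).

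Of the transcription factors of the group, MKL1 was higher and SRF and MKL2 were close to the control. MKL1 had 2373 normalized counts in the TAZ4SA library, against 1725 in the control, or 1.38-fold (1.29 to 1.47). MKL2 had 2457 in TAZ4SA cells against 2563 in control cells, with an interval of 0.902 to 1.02. SRF had 4647 in TAZ4SA cells against 4394 in control cells, or 1.06-fold (1.01 to 1.11). MKL1 supplied 49.1% (47.4 to 50.8) of the reads of the 2 co-activators in the TAZ4SA library, against 40.2% (38.8 to 41.6) in the control. Per kilobase of exon the share of MKL1 was 71.0% in the TAZ4SA library, against 63.1% in the control.

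**Figure D4:**
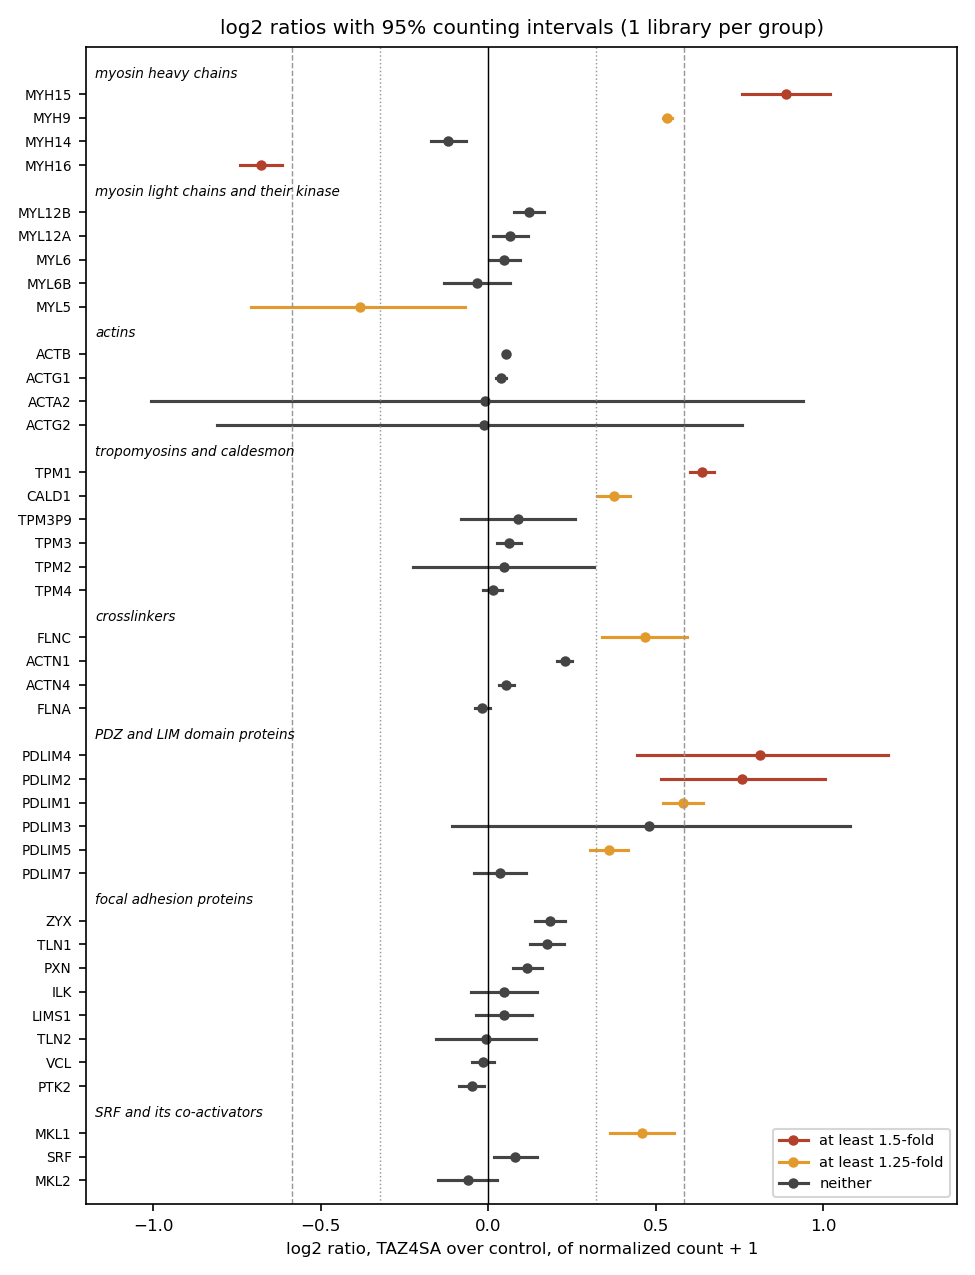
Each row is a measured member, grouped by role (y; 1 of the 41 is not shown), with its log2 ratio of TAZ4SA over control (x, points) and the exact 95% counting interval (lines). Dotted and dashed lines mark a 25% and a 1.5-fold increase and the same folds downward. Red marks the 5 members past 1.5-fold, orange those past the smaller fold alone with an interval excluding a ratio of 1, and the points of the actins and focal adhesion proteins lie between the dotted lines.

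Per kilobase of exon, the most abundant members were the cytoplasmic actins and MYH9. ACTB stood at 73035 normalized counts per kilobase in the TAZ4SA library, against 70414 in the control, ACTG1 at 26956 in TAZ4SA cells against 26250 in control cells and MYH9 at 12522 in TAZ4SA cells against 8641 in control cells. Across the measured members the level per kilobase ranged down to 7.48 in TAZ4SA cells against 5.33 in control cells for PDLIM3. Of the 5 members past 1.5-fold, only TPM1 exceeded 1000 per kilobase in the TAZ4SA library, at 1380 in TAZ4SA cells against 886 in control cells.

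Related genes outside the group were counted by list. Of 25 measured actin crosslinkers and membrane anchors, 2 were at least 1.5-fold higher and 0 lower, 18 lay above 0 and the median log2 ratio was 0.20. Of all measured genes, 4.16% were at least 1.5-fold higher, 4.44% lower and 50% above 0. TAGLN, encoding the filament-binding protein transgelin, had 86 reads in TAZ4SA cells against 68 in control cells and was 2.04-fold higher (1.47 to 2.84). SYNPO, encoding synaptopodin, which binds alpha-actinin, had 241 normalized counts in TAZ4SA cells against 121 in control cells, or 1.98-fold (1.57 to 2.51). CORO1C, a coronin, had 18163 in TAZ4SA cells against 12178 in control cells, or 1.49-fold (1.46 to 1.53). Of 41 other measured focal adhesion proteins, 6 were higher by at least 1.5-fold and 0 lower (4.16% and 4.44% of all measured genes), and their median was 0.10. The highest were AJUBA, a LIM protein that binds LATS kinases, at 3323 in TAZ4SA cells against 1728 in control cells (1.92-fold, 1.81 to 2.04), the Src family kinase gene FYN at 5242 in TAZ4SA cells against 2755 in control cells (1.90-fold, 1.81 to 1.997) and the LIM protein gene FHL2 at 6948 in TAZ4SA cells against 3732 in control cells (1.86-fold, 1.79 to 1.94).

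Of 16 measured MRTF-SRF targets outside the group, 6 were higher by at least 1.5-fold and 0 lower (4.16% and 4.44% of all measured genes), and the median was 0.23. Of the 18 genes of that list, 12 also stand in another of the related lists. The 3 highest, CTGF (14.7-fold), ANKRD1 (9.51-fold) and CYR61 (4.804-fold), are also known targets of TAZ and YAP, and CTGF rests on 64 reads in TAZ4SA cells against 7 in control cells.

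**Figure D5:**
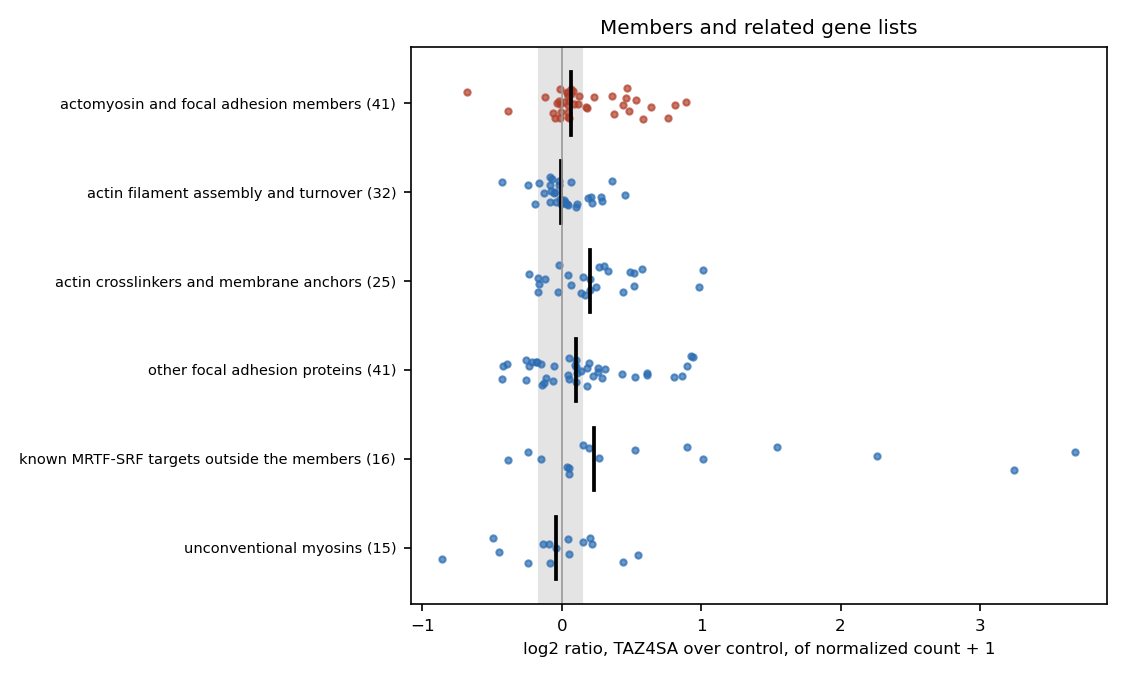
Points are the log2 ratios of TAZ4SA over control (x) of the measured genes of each list (y), with the number of genes in brackets and the median as a black bar. The grey band spans the middle 50% of all measured genes and the grey line their median. The medians are 0.06 for the actomyosin and focal adhesion members and 0.20 for crosslinkers and anchors.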

How the data were processed

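RNA sequencing of 2 libraries, 1 of PC9 cells expressing TAZ4SA and 1 of control PC9 cells, was analysed. Trim Galore, STAR, HTSeq and DESeq2, and the build GRCh37, are named per the submitters' processing notes, without roles or versions. The deposited signal values are gene counts that the authors divided by 1 size factor per library: 100% of values were whole multiples of a step within 0.01 reads, giving factors of 0.689 (TAZ4SA) and 1.11 (control). Strand handling was not given in the sources used here, so reads of overlapping genes cannot be separated. The authors' deposited log2 fold change differed from the log2 ratio of the columns by at most 0.000136 and was not used further.

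Reads were recovered by multiplication, a pseudocount of 1 was added before log2, and intervals are exact Clopper-Pearson intervals of the conditional binomial share. They cover counting error only and not the spread between cultures. Reads without molecular identifiers may not be independent, so the intervals may be too narrow even for counting error. At 1 library per group there are no residual degrees of freedom, so no count test was run on the recovered reads. Every member may be named, as may up to 3 genes of each related list with the largest absolute log2 ratio; other genes named were chosen after their values were seen. Some genes that enter the counts, and 1 list of related genes, are not reported here. The members and lists were chosen with earlier results of these data known, and the roles, families, motifs and the minimum mean of 1000 after these values were seen. The procedure was tested on simulated counts. Exon lengths and 50-base stretches came from GENCODE 29 on GRCh38, by gene ID, and all 48 members matched. Stretches were compared between the longest transcript of a member and all transcripts of other genes. Promoter windows are RefSeq GRCh38.p14; the table's own build gave no coordinates. Alternatives covered 4 scalings, pseudocounts of 0.5 and 5, filters, fold thresholds, gene type and length. Scaling factors came from edgeR 4.0.16 and DESeq2 1.42.0 in R 4.3.3, and all else was computed in Python 3.11.15 with scipy 1.17.1.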

Additional observations from a re-analysis of the deposited data

How the results depend on the processing

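The numbers of members at least 1.5-fold higher (4) and lower (1) stayed the same under 4 scalings, pseudocounts of 0.5 and 5, a minimum mean of 100 and no minimum. They moved with the fold itself, by construction: 0 higher and 0 lower at 2-fold, and 11 at least 25% higher and 2 at least 20% lower at the smaller threshold. With protein-coding members alone, 4 were higher and 0 lower, since MYH16 is annotated as a pseudogene. The median log2 ratio of the members lay between 0.0584 (total counts) and 0.0661 (upper quartile) under the scalings, pseudocounts, filters and gene type, and the mean in its place was 0.17. All 246 alternative log2 ratios of single members, under 6 settings each, stayed within their counting intervals and kept their sign. Between scalings, the all-gene median moved by 0.00438 or less. With the longest transcript as length in place of summed exons, the difference in per-kilobase share, TAZ4SA minus control, was 3.20 percentage points in place of 2.62 for MYH9 and 7.82 in place of 6.73 for TPM1. No paired analysis was possible because the groups hold a single library each, and for the same reason no library could be left out. Depth limits the scarce members most: the interval of ACTA2 ran from 0.497 to 1.92.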

Other observations

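Actin filament assembly genes and unconventional myosins were also counted. Of 32 measured genes of actin assembly and turnover, 0 were at least 1.5-fold higher or lower, 15 lay above 0 and 17 below, and the median log2 ratio was -0.0073. The shares past 1.5-fold over all measured genes were 4.16% upward and 4.44% downward. The count of 0 in 32 genes was not tested against these shares. The widest differences were those of CFL2, a cofilin that severs filaments, at 1519 normalized counts in the TAZ4SA library, against 1107 in the control (1.37-fold, 1.26 to 1.49), of CAPG, which caps filament ends, at 3606 in TAZ4SA cells against 4843 in control cells (1.34-fold lower, 1.28 to 1.41), and of CAP2, which recycles actin monomers, at 373 in TAZ4SA cells against 290 in control cells (1.29-fold, 1.09 to 1.52). Of 15 measured unconventional myosins, which mostly carry cargo or bind membranes, 0 were at least 1.5-fold higher or lower with an interval excluding 1, and the median was -0.04. MYO18A had 5103 normalized counts in TAZ4SA cells against 7182 in control cells (1.41-fold lower, 1.35 to 1.46), and MYO1F had 11 reads in TAZ4SA cells against 33 in control cells, with an interval that included a ratio of 1.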
